A study of Homo sapiens with 4 samples.

Results

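The genes described are 10 components of the Notch pathway: the receptors NOTCH1, NOTCH2 and NOTCH3, the ligands JAG1 and JAG2, and the targets HES1, HES4, HEY1, HEYL and NRARP. They were chosen by name, around the large difference already known for HEY1 in these libraries, from 62893 genes in the count tables. All 10 symbols matched an Ensembl identifier, and 8 of the genes had enough reads to be tested, JAG2 and HEYL being the exceptions. Because the choice followed earlier results, the differences between groups are given as a description and no single gene has a p-value here.

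RNA sequencing was carried out on Hep-G2, a human hepatoma-derived line, at passage 21. The scramble group carried the shRNA named SHC002, and the shFTO group carried TRCN0000246247, an shRNA against FTO, the demethylase of N6-methyladenosine in RNA. Both groups thus express an shRNA, each from a single construct, and the labels name no other treatment. Each group has 2 count tables, called run 1 and run 2 here, with 20047409 to 20706611 reads assigned to genes. The runs of a group differed by no more than sampling noise (chi-square per degree of freedom 1.019 for scramble and 1.013 for shFTO, against 118.5 to 120.4 between groups). They were therefore pooled and counted as 1 sample, which leaves 1 sample in each group and no replicate check of any difference. FTO itself went from 31.4 and 28.5 CPM (reads scaled to a common library size) in the scramble runs to 5.42 and 5.83 CPM in the shFTO runs. All 8 hepatocyte markers examined were present in both groups and all 8 were lower in shFTO. At least 2-fold lower were 5 of them, beside 6.19% of all tested genes. Their median log2 ratio was -1.26, beside 0.01 for all tested genes. Summed levels were 35360 to 35400 CPM in scramble and 15330 to 15400 CPM in shFTO. The largest parts were ALB (pooled 12990 CPM in scramble, 4054 in shFTO) and TF (9047 and 4450).

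Notch signalling passes between touching cells. A ligand of the Jagged or Delta-like family on one cell binds a Notch receptor on its neighbour, and cleavage by an ADAM protease and then by gamma-secretase frees the receptor's intracellular domain. In the nucleus this domain joins the DNA-binding protein RBPJ and a Mastermind coactivator and switches on targets, above all the HES and HEY genes, which encode repressors of the basic helix-loop-helix class. In the developing liver, JAG1 and NOTCH2 are known for their part in forming bile ducts, and their mutation causes Alagille syndrome.

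The 10 transcripts did not share a direction. HEY1 was far lower in shFTO and NOTCH1 far higher, NOTCH2 and HES1 were moderately higher, and JAG1, HES4 and NRARP differed little. At a threshold of at least 2-fold, 1 of the 8 tested genes was lower, HEY1, where 6.19% of all 13767 tested genes were, and 1 was higher, NOTCH1, where 5.18% of all were. As HEY1 guided the choice, nothing is read from its count. The median log2 ratio of the 8 was 0.11, beside 0.01 for all tested genes. JAG2 would be a further gene at least 2-fold higher, which made 2, when no filter on low counts was used or when scramble run 1, scramble run 2 or shFTO run 2 was left out, since it was then tested. Without shFTO run 1 its log2 ratio was 0.80 in place of 1.69, which is under 2-fold.

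**Figure D1:**
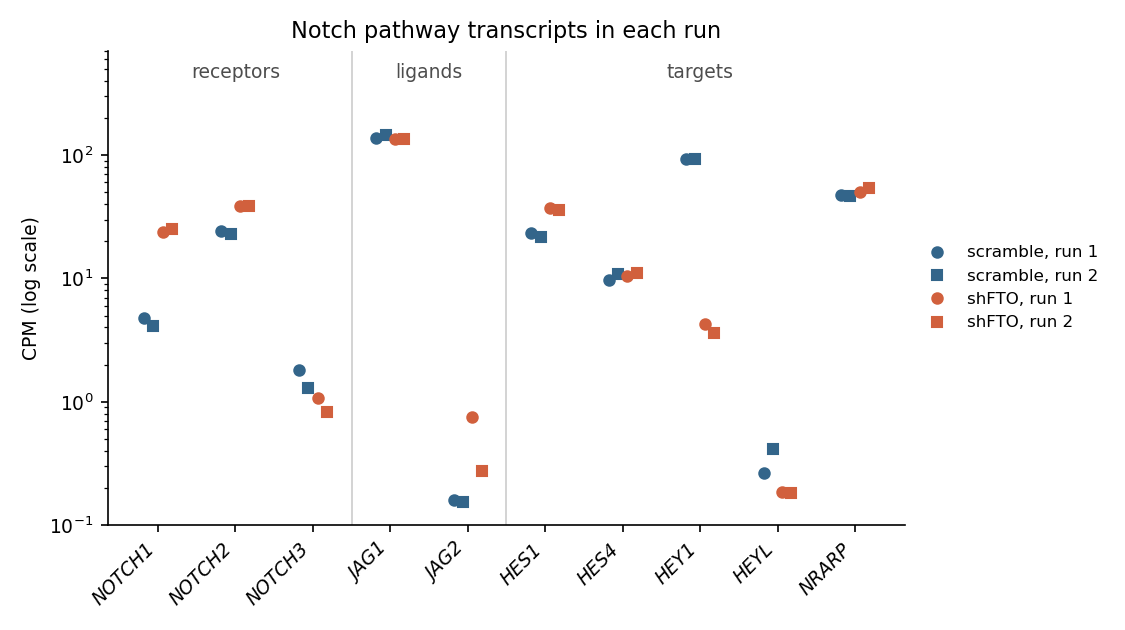
Normalised read level (CPM, log axis) of the 10 transcripts in each of the 4 runs, with scramble in blue and shFTO in orange, circles for run 1 and squares for run 2. HEY1 sits near 92 in both scramble runs and near 4 in both shFTO runs, while the points of JAG1 and HES4 lie close together.

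Among the receptors, NOTCH1 (ENSG00000148400) differed most. It had 91 and 80 reads in the scramble runs, or 4.81 and 4.14 CPM, and 512 and 549 reads in the shFTO runs, or 23.9 and 25 CPM. Both shFTO runs lay far above both scramble runs. With runs pooled, NOTCH1 was 5.47-fold higher in shFTO (95% interval 4.65 to 6.47), a log2 ratio of 2.45 that ranked 142nd from the highest among tested genes. All intervals of folds are exact (Clopper-Pearson, from the pooled reads); they reflect counting alone and say nothing of variation between cultures. In bulk RNA a change in the number of cells of a kind and a change in RNA per cell cannot be told apart.

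NOTCH2 (ENSG00000134250), the receptor linked to bile duct formation, stood at 24.3 and 22.8 CPM in scramble and at 38.6 and 38.5 CPM in shFTO. Pooled, it was 1.64-fold higher in shFTO (1.51 to 1.78). NOTCH2 has near-identical partial copies, the NOTCH2NL genes, which can take or lose shared reads, so its level is uncertain. The copy NOTCH2NLA, matched by identifier, held no read in any table, which does not settle how many shared reads NOTCH2 gained or lost.

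NOTCH3 (ENSG00000074181), a receptor best known from vascular smooth muscle and itself a Notch target, was low throughout. Its runs had 34 and 25 reads in scramble and 23 and 18 in shFTO, or 1.80 and 1.29 against 1.07 and 0.82 CPM. The lower scramble run and the higher shFTO run were only 2 reads apart. Pooled, NOTCH3 was 1.63-fold lower (1.08 to 2.49), and its interval reaches close to no difference.

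The make-up of receptor transcripts therefore differed between the groups. NOTCH1 made up 14.9% (12.2 to 18) and 14.1% (11.3 to 17.2) of reads on the 4 receptor genes in the scramble runs. In the shFTO runs its share was 37.1% (34.5 to 39.7) and 38.6% (36.0 to 41.2). This share needs no library scaling, and its intervals reflect counting alone. Per kilobase of merged exon, a rough way to compare genes, NOTCH2 held 66.0% of the receptor signal in scramble and NOTCH1 20.3%. In shFTO they held 47.6% and 48.9%. By pooled reads alone NOTCH2 was ahead in both groups, at 76.5% in scramble and 59.7% in shFTO. The near-equal shares in shFTO thus depend on the exon lengths used, and the NOTCH2NL copies also limit this comparison. Reads of NOTCH1 relative to those of NOTCH2 were 3.34-fold higher in shFTO (exact conditional interval 2.78 to 4.02).

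Of the ligands, JAG1 (ENSG00000101384) was the abundant one and scarcely differed. It stood at 137.6 and 145.2 CPM in scramble and at 134.6 and 135.4 CPM in shFTO, so the shFTO runs were lower by a small margin. The pooled ratio was 1.05-fold lower (1.01 to 1.09), with a log2 ratio of -0.07. With plain library size as the scaling it turned to 0.10, so JAG1 has no settled direction. Relative to JAG1, reads of NOTCH1 were 5.73-fold higher in shFTO (4.85 to 6.81).

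JAG2 (ENSG00000184916), the second Jagged ligand, was close to undetected, with 3 and 3 reads in scramble and 16 and 6 in shFTO. The shFTO runs were higher but differed from each other, and the pooled ratio of 3.23 had a wide interval of 1.27 to 9.74. It did not pass the filter on low counts. Per kilobase of exon, JAG1 stood at 15.2 CPM per kilobase in scramble and 14.5 in shFTO, and JAG2 at 0.02 and 0.08, which makes JAG1 the main Jagged transcript in both groups.

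Among the targets, HEY1 (ENSG00000164683), a repressor of the HEY family known from blood vessel and heart development, had 1754 and 1781 reads in scramble and 92 and 79 in shFTO. These are 92.8 and 92.2 CPM against 4.30 and 3.60 CPM. The runs agreed within each group, as they did over all genes. Pooled, HEY1 was 23.5-fold lower (20.1 to 27.5), with a log2 ratio of -4.55, and ranked 29th from the lowest of all tested genes. Per kilobase of exon it went from 28.6 to 1.22 CPM per kilobase.

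HES1 (ENSG00000114315), the most widely used Notch readout and a repressor that also binds its own promoter, went the other way. It stood at 23.3 and 21.5 CPM in scramble and at 37.2 and 35.8 CPM in shFTO. The pooled ratio was 1.63-fold higher (1.5 to 1.77), close to that of NOTCH2, and the reads of HES1 relative to NOTCH2 did not differ detectably (ratio 0.995, 0.885 to 1.12). In contrast, scramble runs held 3.99 and 4.29 reads of HEY1 for each read of HES1, and shFTO runs 0.115 and 0.101. The ratio of HEY1 to HES1 was thus 38.2-fold lower in shFTO (32.0 to 45.8), a value that no library scaling can move. As HEY1 guided the choice of genes, this ratio is a description only.

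HES4 (ENSG00000188290), a close relative of HES1, was nearly level. It stood at 9.78 and 10.8 CPM in scramble and at 10.4 and 11.1 CPM in shFTO, and the runs of the groups overlapped. The pooled ratio was 1.04 (0.91 to 1.19). Reads of HES1 relative to HES4 were 1.57-fold higher in shFTO (1.33 to 1.84), so the pair differed unequally.

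NRARP (ENSG00000198435), a small ankyrin repeat protein that binds the intracellular domain of Notch and dampens its activity, stood at 47.2 and 46.3 CPM in scramble and at 49.9 and 54.2 CPM in shFTO. Its shFTO runs were slightly higher, by 1.12-fold when pooled (1.05 to 1.19). HEYL (ENSG00000163909), the third HEY gene, was too low to test, with 5 and 8 reads in scramble and 4 and 4 in shFTO. Its pooled ratio of 0.54 had an interval of 0.19 to 1.41, so no difference was detectable at this depth.

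**Figure D2:**
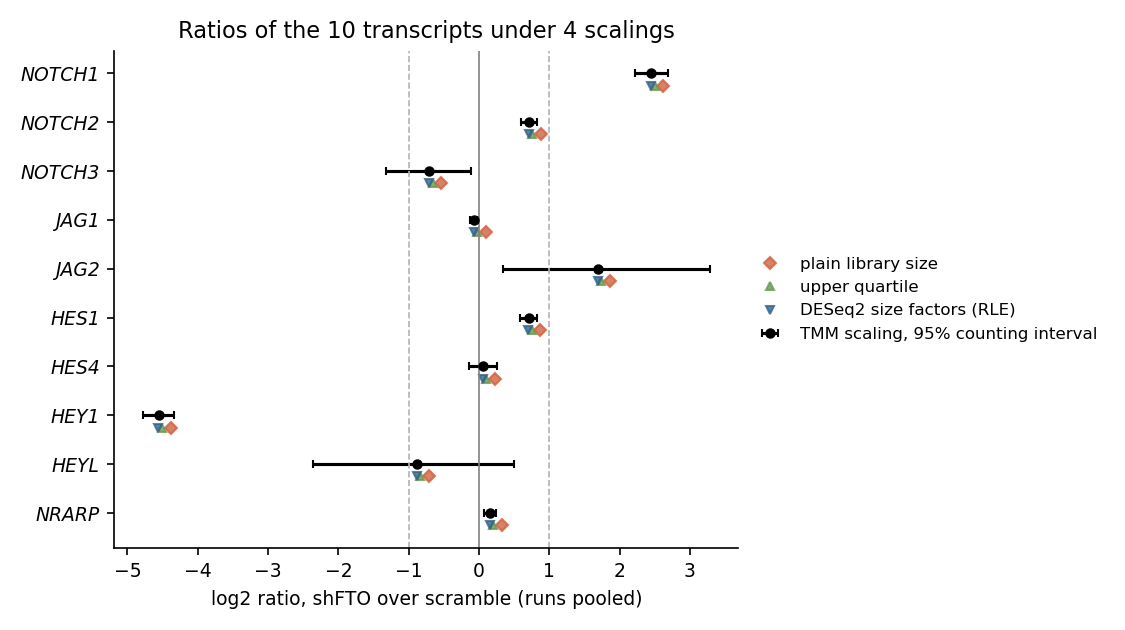
Log2 ratio of shFTO over scramble for each of the 10 transcripts, with black points and bars for the main (TMM) scaling and its 95% counting interval and coloured symbols for 3 other scalings; dashed lines mark 2-fold. HEY1 lies at -4.55 and NOTCH1 at 2.45 on the log2 scale, and plain library size moves every point to the right, taking JAG1 across 0.

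The promoters of HES1, HES4 and NRARP are shown because these targets are present in both groups. HES1 was higher in shFTO, while HES4 and NRARP differed little. They come from RefSeq (GRCh38.p14), cover 250 bases before to 50 after the annotated start, and read 5′ to 3′ on the gene's own strand. The set of RefSeq windows used here held 9 of the 10 genes and had no entry for HEY1, so its promoter was not examined. Capitals mark the core RBPJ motif, TGGGAA, searched on both strands, and its longer form GTGGGAA contains it. HES1 is at chr3:194135898-194136197 on the plus strand, HES4 at chr1:1000048-1000347 and NRARP at chr9:137302222-137302521, both on the minus strand.
HES1: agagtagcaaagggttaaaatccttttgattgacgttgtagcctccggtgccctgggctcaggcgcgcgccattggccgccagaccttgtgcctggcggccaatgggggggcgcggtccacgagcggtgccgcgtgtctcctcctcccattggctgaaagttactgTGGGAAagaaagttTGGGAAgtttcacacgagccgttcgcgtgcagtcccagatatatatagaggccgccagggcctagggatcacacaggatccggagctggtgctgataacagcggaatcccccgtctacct
HES4: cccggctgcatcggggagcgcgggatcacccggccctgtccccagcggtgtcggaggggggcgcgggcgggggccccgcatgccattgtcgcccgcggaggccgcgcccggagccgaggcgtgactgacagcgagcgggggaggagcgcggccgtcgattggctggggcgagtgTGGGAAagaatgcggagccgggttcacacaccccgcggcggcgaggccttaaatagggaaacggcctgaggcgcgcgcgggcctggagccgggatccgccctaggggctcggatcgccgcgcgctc
NRARP: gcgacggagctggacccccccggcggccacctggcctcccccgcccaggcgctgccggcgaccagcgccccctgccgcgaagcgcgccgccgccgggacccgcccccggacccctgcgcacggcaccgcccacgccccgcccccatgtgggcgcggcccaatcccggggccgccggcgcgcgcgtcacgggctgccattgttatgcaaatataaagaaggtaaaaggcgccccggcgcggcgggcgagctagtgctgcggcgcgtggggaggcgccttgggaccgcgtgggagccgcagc

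The HES1 window holds the core motif at -84 and -70, counted from its first base to the start, both on the strand shown. The first of these is the longer form. Only exact letters were searched, so variant forms of the motif on either strand would be missed. HES4 has the longer form at -77, and these letters are not found in the NRARP window. Of 35116 RefSeq promoter windows of the same length outside chromosome 8, 24.0% hold the core motif, 3.8% hold it at 2 or more places, and 6.25% hold the longer form. HEYL also has 2 core matches, of which that at -178 is the longer form on the opposite strand, whereas none was found in the windows of NOTCH1, NOTCH2, NOTCH3, JAG1 or JAG2. The N box CACNAG, a sequence bound by HES repressors, occurs at 4 places in the HES1 window and 1 each in those of NOTCH2, NOTCH3 and NRARP. In the NOTCH1 window its 2 matches, at -1 and 2, overlap on opposite strands and form a single stretch. Of all windows, 38.0% hold it and 8.94% hold it at 2 or more places. CACGCG, another sequence that HES and HEY proteins bind, occurs at 2 places each in HES1 and NRARP and 1 each in JAG1 and JAG2, where 11.4% of windows hold it, and CACGTG, held by 7.26%, in none of the 9. GC content was 59.0% in the HES1 window, 78.3% in NRARP, 68.7% in JAG1 and 79.7% in JAG2, beside a median of 58.7% over the set. The shares over all windows were not matched for GC content, so no excess is read from them. These are matches of letters, not sites shown to be bound. HES1, HES4 and HEYL carry the longer RBPJ motif and had ratios of 1.63, 1.04 and 0.54, the last from few reads.

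The shares of the HES and HEY family follow from the values above and are given as a description. Per kilobase of exon, HEY1 accounted for 33.8% of the family's signal in scramble and 1.67% in shFTO. The share of HES1 went from 12.8% to 24.1%, that of HES4 from 10.9% to 13.1%, and that of HES6, an inhibitor of HES1 activity, from 42.1% to 60.7%. Shares of a fixed total must go up in the others when HEY1 goes down, as for HES4, whose own ratio was 1.04 (0.91 to 1.19). HES6 itself was 1.25-fold higher (1.19 to 1.31). HEY2, the closest relative of HEY1, had 3 reads in scramble and 11 in shFTO (ratio 3.23, 0.85 to 18), and held 0.03% and 0.13% of the family's signal. HES3 and HELT had no read in any run, and HES2, HES5 and HES7 had 26, 0 and 1 reads in scramble and 22, 3 and 2 in shFTO.

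**Figure D3:**
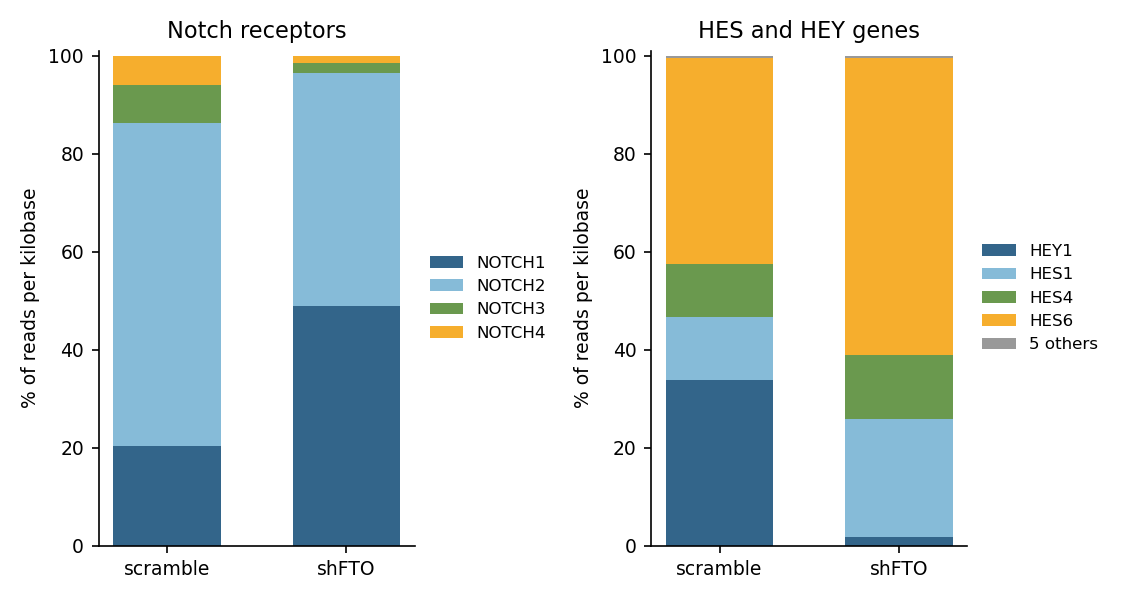
Stacked bars of the share of reads per kilobase of exon (percent, runs pooled) taken by each Notch receptor (left) and each HES or HEY gene (right) in scramble and shFTO. NOTCH1 goes from 20.3% to 48.9% of the receptor signal, and HEY1 from 33.8% to 1.67% of the HES and HEY signal.

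The rest of the pathway was examined through 7 lists by role, 69 genes in all, of which 55 were tested. Of these, 5 were at least 2-fold lower (9.09%, beside 6.19% of all tested genes) and 6 at least 2-fold higher (10.9%, beside 5.18%), and their median log2 ratio was 0.04. Other scalings gave 5 lower and 6 or 7 higher. All differences named below for these lists are of pooled runs.

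The other receptor and ligands were lower or level. Of 8 genes, 5 were tested and 2 were at least 2-fold lower. The non-canonical ligands DLK1 and DLK2, which lack the receptor-binding domain of Jagged and Delta-like ligands, were 2.71-fold (2.65 to 2.78) and 2.89-fold (2.35 to 3.58) lower. DLK1 is a fetal liver marker. Its level per length was 114.7 CPM per kilobase in scramble and 42.2 in shFTO, above that of JAG1 in both. NOTCH4 went from 1.23 to 0.65 CPM, a ratio of 1.90-fold lower (1.17 to 3.16). The Delta-like ligands DLL3 and DLL4 stood at 0.68 and 0.13 CPM per kilobase in scramble and at 0.57 and 0.13 in shFTO, well under JAG1, and DLL1 had a single read.

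In the list of receptor processing, 2 of 9 tested genes were at least 2-fold higher. FURIN, the protease that cuts the Notch precursor on its way to the surface, had 1784 and 1906 reads in scramble and 5150 and 5387 in shFTO and was 2.52-fold higher (2.42 to 2.61). APH1B, a gamma-secretase subunit, was 3.0-fold higher (2.27 to 4.0), but its related subunit APH1A stood far higher per length, at 46.5 CPM per kilobase in scramble against 0.32 for APH1B, and was 1.11-fold lower (1.07 to 1.15). The sheddase ADAM10 was level at 263.4 CPM in both groups, and ADAM17 was 1.40-fold higher (1.32 to 1.49).

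Of the 5 enzymes that add sugars to Notch, MFNG was the one at least 2-fold changed. This Fringe enzyme, which alters how receptors respond to Jagged and Delta-like ligands, had 199 and 180 reads in scramble and 49 and 60 in shFTO, and was 3.94-fold lower (3.18 to 4.93). Its relatives LFNG and RFNG were 1.43-fold (1.13 to 1.82) and 1.21-fold (1.13 to 1.30) higher. POFUT1, which adds the fucose that Fringe enzymes extend, was 1.13-fold lower (1.09 to 1.17).

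In the nuclear complex the DNA-binding protein was level. RBPJ had 56.4 CPM in scramble and 57.6 CPM in shFTO, a ratio of 1.02 (0.96 to 1.08), and the coactivator MAML1 had a ratio of 1.03 (0.97 to 1.10). MAML2, another Mastermind coactivator, had 1110 and 1136 reads in scramble and 457 and 438 in shFTO and was 2.85-fold lower (2.63 to 3.08). The corepressor TLE4, of a family that HES repressors recruit, had 240 and 276 reads against 30 and 30 and was 9.76-fold lower (7.46 to 13.0). TLE1 and TLE3 were 1.21-fold (1.17 to 1.25) and 1.15-fold (1.05 to 1.25) higher. The acetyltransferase KAT2B was 2.23-fold higher (1.67 to 3.0) at low level. Of 16 tested genes in this list, 2 were at least 2-fold lower and 1 higher.

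Among 14 tested genes of ligand and receptor trafficking, 2 were at least 2-fold higher and none lower. NEURL1B, a ubiquitin ligase that acts on Notch ligands, went from 22 and 20 reads to 124 and 120 and was 5.12-fold higher (3.68 to 7.29). DTX4, a Deltex ubiquitin ligase, was 3.57-fold higher (3.23 to 3.94). The ligases MIB1 and ITCH and the adaptor NUMB differed little, at 1.04-fold lower, 1.12-fold lower and 1.03-fold higher.

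**Figure D4:**
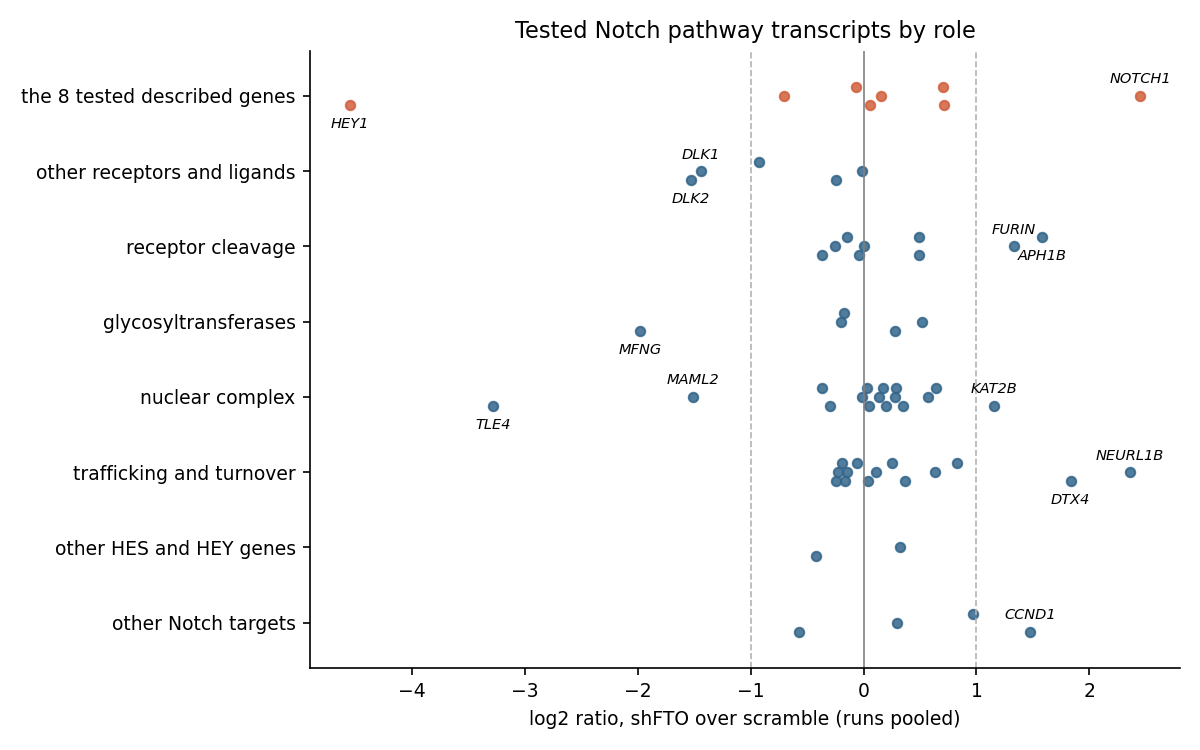
Log2 ratio of shFTO over scramble for each tested gene (points), by role in the pathway, with dashed lines at 2-fold and names for genes beyond it. The described genes (orange) span -4.55 to 2.45, and TLE4 and NEURL1B lie furthest out among the other lists.

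Of 8 other genes known as Notch targets in some tissues, 4 were tested, of which CCND1, CDKN1A and EPHB4 were higher and SOX9 lower. At the 2-fold threshold 1 was higher and none lower. CCND1, which encodes cyclin D1 and has many inputs besides Notch, was 2.79-fold higher (2.73 to 2.84) and the cell cycle inhibitor CDKN1A 1.96-fold higher (1.88 to 2.04). EPHB4 was 1.22-fold higher (1.19 to 1.26). SOX9, a bile duct and progenitor factor, was 1.48-fold lower (1.44 to 1.52). DTX1 had 2 reads in scramble and 1 in shFTO.

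Markers of other cell types are given beside these results, and over all tested genes 6.19% were at least 2-fold lower and 5.18% higher. Of 10 bile duct (cholangiocyte) markers, 9 were matched and 6 tested, of which KRT7 passed 2-fold upward and GGT1 downward, and their summed level was 1671 and 1678 CPM in scramble against 1984 and 1977 CPM in shFTO. KRT7 had no read in scramble and 34 and 45 reads in shFTO, and AQP1 had no read in any run. The higher sum came mostly from KRT19, 1.97-fold higher (1.92 to 2.02), and SPP1, 1.20-fold higher (1.18 to 1.22), while SOX9 was lower, as given above. Of 10 endothelial markers, 2 were tested, and the list's summed level was 3.01 and 3.73 CPM in scramble and 2.90 and 2.60 CPM in shFTO, with PECAM1, KDR and ERG at 0 in every run. The tested markers went opposite ways beyond 2-fold, ENG 3.59-fold lower (2.24 to 5.95) and TIE1 2.41-fold higher (1.57 to 3.79). In the list of 10 genes of fibroblasts and stellate cells, 3 could be tested, with a summed level of 56.7 and 55.0 CPM in scramble and 43.8 and 39.6 CPM in shFTO, and COL3A1, DCN, LUM and THY1 had no read. PDGFRB was 6.42-fold lower (5.42 to 7.66) and COL1A1 23.8-fold higher (9.95 to 74.5). Of 8 immune markers 4 were tested, and PTPRC and CD3E had no read. The summed immune level of 3003 and 3010 CPM in scramble and 235.5 and 234.6 CPM in shFTO was nearly all LYZ, the lysozyme gene, which was 12.95-fold lower (12.7 to 13.2), and ITGAM had 1 read in scramble and 30 in shFTO. Each of these lists held tested members on both sides, and their part in the Notch results was not tested.

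Among 4351 other named genes with a mean level within 2-fold of that of HEY1, those with the nearest log2 ratio were TTR, the thyroid hormone carrier transthyretin, APOM, an apolipoprotein, and HEPACAM, a cell adhesion protein. Their log2 ratios were -4.31, -4.21 and -4.01 against -4.55 for HEY1. The likeness is over 1 sample per group and says only that these transcripts were lower by a similar factor.

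**Figure D5:**
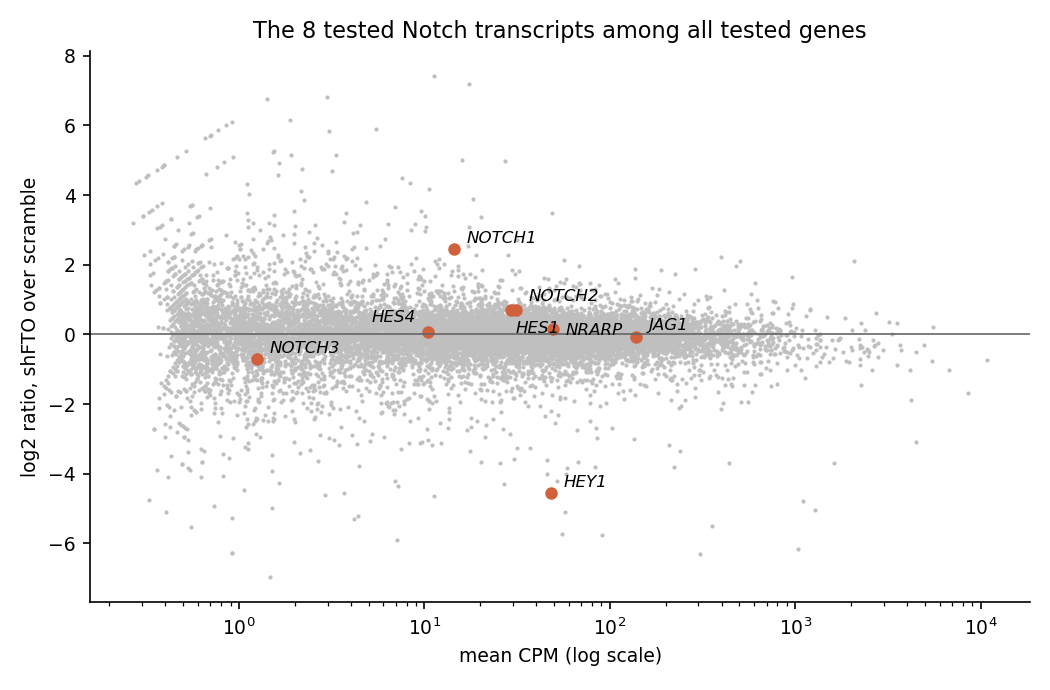
Log2 ratio of shFTO over scramble against mean CPM (log axis) for all tested genes with reads in both groups (grey) and the 8 tested Notch transcripts (orange). HEY1 lies near the lower edge of the cloud at its level, NOTCH1 well above the middle, and the other 6 within it.

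With a quasi-likelihood test in edgeR, adjusted by Benjamini-Hochberg over all tested genes, 4 of the 8 were higher and 3 lower, beside 33.2% and 33.4% of all tested genes. The lower calls include HEY1, which guided the choice of genes, so nothing is read from its call. The spread in this test comes from runs that differ by sampling only, and the calls therefore concern the libraries, not the conditions. The calls of NOTCH1, NOTCH2 and HES1 held under every alternative, all of which re-used the same reads and so give no independent support. Those of NOTCH3, JAG1 and NRARP did not, and without shFTO run 2 a single lower call, HEY1, was left.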

How the data were processed

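The 4 deposited tables hold whole-number read counts for Ensembl genes, measured in total RNA and not normalised by the authors. The build hg19 and the tools HTSeq 0.6.0 and TopHat2 2.1.1 are named, per the submitters' processing notes. Annotation release and strandedness are not given in the sources used here, so reads of overlapping genes on opposite strands cannot be told apart. Symbols were matched by identifier for 51226 of 62893 genes. Exon lengths are merged exons of GENCODE 29 (GRCh38), used for lengths only. Exons of JAG1 and JAG2 each overlap another gene's there, and those genes held at most 1 read per group.

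The members and lists were chosen with earlier results of these data known. Library sizes were scaled with edgeR's TMM factors, and genes were tested if they passed filterByExpr (edgeR 4.0.16, R 4.3.3; 13767 genes). Runs of a group were compared by chi-square over genes with at least 20 reads and pooled. Folds are ratios of pooled CPM, with 95% intervals taken from the exact (Clopper-Pearson) interval on each gene's shFTO share of reads (scipy 1.17.1). Ratios between 2 genes have exact conditional intervals. Nothing in the labels says that the runs came from separate cultures. In the pathway lists, genes at least 2-fold changed with 10 or more reads are named, and the others named there were chosen after their values were seen. Genes most like HEY1 were those with the nearest log2 ratio at a mean level within 2-fold of it. The edgeR code was tested on simulated data. Alternatives were other scalings, no low count filter, a fold of 1.5, whole intervals beyond 2-fold, leaving out each run, the replicate number as a block, and DESeq2 1.42.0.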

Additional observations from a re-analysis of the deposited data

How the results depend on the processing

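Plain library size shifted the median of all tested genes by 0.17 on the log2 scale. It turned the log2 ratio of JAG1 from -0.07 to 0.10, and moved those of NOTCH2, HES1 and NRARP beyond their counting intervals, to 0.88, 0.87 and 0.32. All other log2 ratios of the 10 genes stayed inside their counting intervals under the other scalings, without the filter and without each run in turn, including HEY1 (-4.68 to -4.43 without 1 run) and NOTCH1 (2.34 to 2.56). The number at least 2-fold lower was 1 under each of these settings and 2 at a fold of 1.5, with NOTCH3 added. The number at least 2-fold higher was 1, or 3 at a fold of 1.5, 2 without the filter, and 1 to 2 without 1 run. The edgeR count of lower genes was 3, but 1 with DESeq2, 1 without the filter, 1 with plain library size, and 1 to 2 without 1 run. The count of higher genes was 4, and 3 to 6 under the alternatives. With the replicate number as a block it was 4 higher and 3 lower. Same-numbered runs did not deviate together (correlation 0.02). As runs of a group differed by sampling noise only, this cannot decide whether the numbers pair the runs. Depth limits NOTCH3, JAG2 and HEYL, which had 100, 28 and 21 reads over the 4 tables.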
